A study of Caenorhabditis elegans with 12 samples.

Results

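The abu and pqn genes of Caenorhabditis elegans were followed across 12 Affymetrix expression arrays. Members were chosen by symbol, every gene whose name is abu or pqn followed by a number, and each was represented by its brightest probe set annotated to that gene alone. The array named 69 such genes among 18217, 15 of them abu and 54 pqn. Of these, 58 had a probe set of their own and 50 (10 abu and 40 pqn) passed the filter on dim probe sets, among 10385 genes tested. The other 8 genes with a probe set of their own were too dim, and 11 genes were represented only by probe sets shared with other members. The group was picked because the abu genes were lower in wild type on spg-7 RNAi and not in the mutant, so the effect of spg-7 RNAi in either genotype, and the difference between the genotypes in that effect, are given as a description. Counts of members past the threshold in these comparisons stand beside the share of all genes past it, and they are no test of the members.

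The worms were wild type (N2) or carried the atfs-1 allele tm4525, the only atfs-1 allele used. Each genotype was fed bacteria for either control RNAi or spg-7 RNAi, in bleach-synchronised liquid cultures, and total RNA of whole worms was collected at the L4 larval stage. Each of the 4 groups had 3 biological replicates, 1 array each. ATFS-1 switches on nuclear genes when mitochondria are stressed, and knocking down the mitochondrial protease SPG-7 is a common way to cause that stress in worms.

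The name abu stands for activated in blocked unfolded protein response, after genes that rose when stress in the endoplasmic reticulum was applied to worms lacking the usual response, and pqn for a prion-like domain rich in glutamine and asparagine. Many abu proteins and a part of the pqn proteins are paralogues that are secreted into the cuticle lining the pharynx, the feeding organ, and their RNA rises and falls with each moult. The pqn name was given for amino acid composition alone, so it also covers unrelated proteins such as pqn-59, a relative of the human RNA-associated protein UBAP2L, and pqn-41, which acts in the death of the male linker cell.

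Signals were on the linear scale of MAS5, Affymetrix's summary of a probe set, and the median signal of an array lay between 111.9 and 158.8. The probe set for spg-7 itself was brighter on spg-7 RNAi in both genotypes, at 7278 to 22348 against 454 to 1057 in wild type and at 9968 to 26208 against 313 to 450 in the mutant, so it does not show how far spg-7 was knocked down. Within groups, arrays correlated at 0.867 to 0.920 in wild-type controls, 0.879 to 0.917 in wild type on spg-7 RNAi and 0.922 to 0.946 in the mutant groups. Wild-type control replicate 1 stood apart in its yolk genes, whose median log2 signal was 6.46 against 14.48 and 13.96 in replicates 2 and 3. Wild-type spg-7 replicate 3 had the lowest median signal of the 12 arrays.

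All 10 measured abu genes had a lower mean log2 signal on spg-7 RNAi than in controls in wild type, by 1.29 to 1.95, which is 2.44- to 3.86-fold, with standard errors (SE) of 0.32 to 0.72. Their median was -1.77, that of the 40 pqn genes was -0.23 and that of all 10385 genes was -0.04. For 9 of the 10 abu genes and 10 of the 40 pqn genes, all 3 spg-7 arrays lay below all 3 control arrays, an arrangement found for 8.48% of all genes. Only abu-2, abu-10 and abu-14 were on plain probe sets. The other abu genes were on probe sets marked s or x, which can bind transcripts of more than 1 gene. The abu genes may therefore not all be separate measurements. As part of that description, 7 members (abu-6, abu-8, abu-10, abu-11, abu-15, pqn-71 and pqn-74) were among the 149 genes (1.43%) past limma's threshold on the lower side, a Benjamini-Hochberg adjusted p under 0.05 over all genes, and none was among the 342 (3.29%) on the higher side. The number changed with the arrays used, for members and for all genes. It was 1 member of 60 genes without wild-type spg-7 replicate 2 and 2 of 31 without wild-type control replicate 3. It was 11 of 178 without mutant control replicate 3 and 0 of 9 in a fit to the wild-type arrays alone. These values chose the group, so nothing about the members is read from the counts. In RNA from whole worms, fewer cells of a type and less RNA per cell cannot be told apart.

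**Figure D1:**
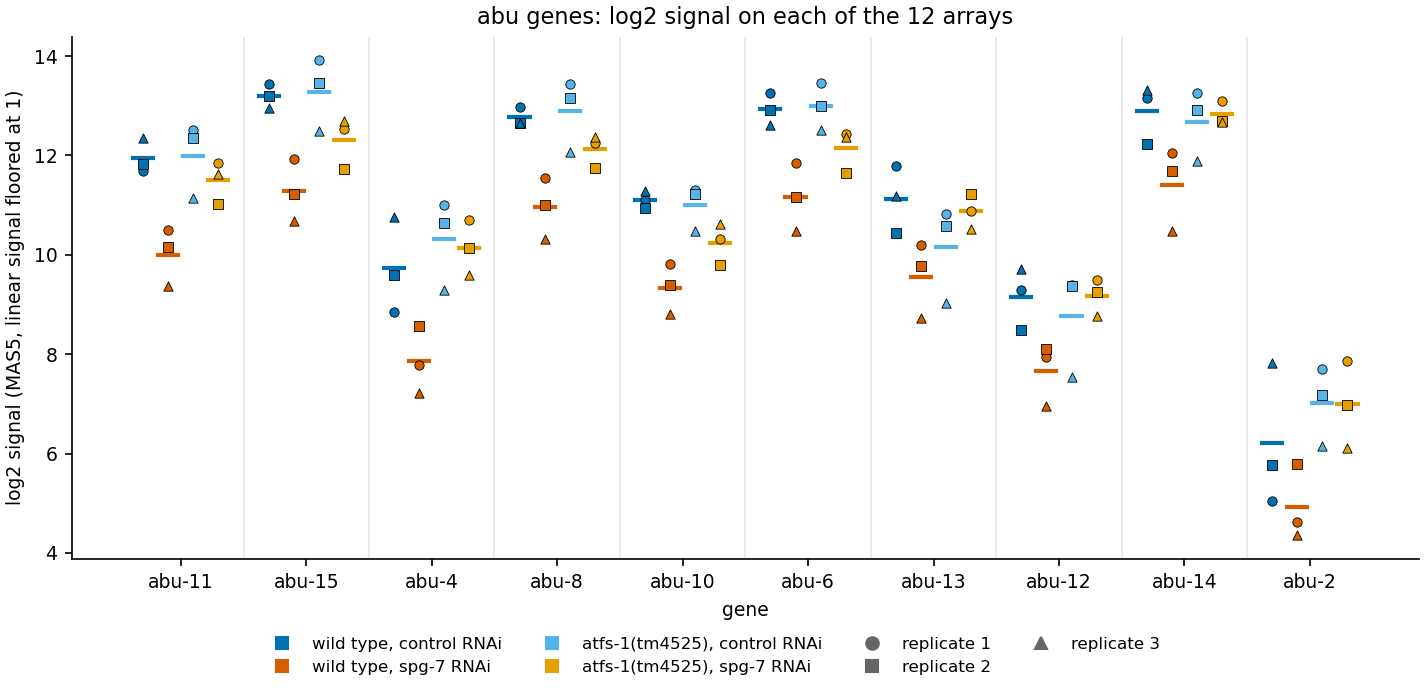
Log2 signal of the 10 measured abu genes on each of the 12 arrays in 4 groups; symbols mark replicates and bars the mean of 3 arrays. The wild-type spg-7 arrays lie below the wild-type controls for every gene but abu-2, whose groups overlap.

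The gene abu-11, whose overexpression is reported to lengthen worm life, had signals of 3273, 3638 and 5229 in wild-type controls and 1439, 1135 and 663 in wild type on spg-7 RNAi. In the mutant they were 5802, 5189 and 2246 in controls and 3705, 2085 and 3180.0 with spg-7 knocked down. The wild-type groups were separate, with the mean 3.86-fold lower on spg-7 RNAi (log2 -1.95, SE 0.40, n = 3 per group). The mutant groups overlapped, because control replicate 3 lay inside the range of the spg-7 arrays, and the log2 difference was -0.49 (SE 0.40).

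Another abu gene, abu-14, whose loss is known to affect the pharyngeal cuticle, was measured at 9061, 4801 and 10181 in wild-type controls and at 4254, 3298 and 1422 on spg-7 RNAi. Its mutant signals were 9766, 7692 and 3768 in controls and 8790.0, 6629 and 6567 with spg-7 knocked down. The wild-type groups were separate by a narrow margin, between control replicate 2 and spg-7 replicate 1, and the mutant spg-7 arrays lay inside the range of the mutant controls. The log2 difference was -1.49 (SE 0.45) in wild type and 0.14 (SE 0.45) in the mutant.

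The neighbouring genes abu-6 and abu-15 lie next to each other and to abu-7 in RefSeq's gene order, and both probe sets are of a type marked x, which can bind transcripts of more than 1 gene. Signals of abu-15 were 11038, 9351 and 7881 in wild-type controls and 3873, 2399 and 1641 on spg-7 RNAi. In the mutant they were 15399, 11201 and 5746 against 5945, 3367 and 6624. The wild-type groups did not overlap, while mutant control replicate 3 was below 2 of the mutant spg-7 arrays, and the log2 differences were -1.91 and -0.97 (SE 0.40 each). Signals of abu-6 were 9722, 7753 and 6262 against 3699.6, 2287 and 1421 in wild type, and 11308, 8139 and 5830.5 against 5558, 3199 and 5287 in the mutant. It was the one abu gene whose mutant groups were also separate, with every spg-7 array lower, at a log2 difference of -0.84 (SE 0.37) beside -1.76 in wild type.

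The genes abu-8 and abu-10 followed the same order. Signals of abu-8 were 8088, 6433 and 6467 against 2984, 2049 and 1279 in wild type and 11088, 9162 and 4295 against 4891, 3442 and 5326 in the mutant. Those of abu-10, measured by a probe set of the plain type, were 2209, 1966 and 2483 against 899, 674 and 445 in wild type and 2522, 2387 and 1436 against 1268, 891 and 1565 in the mutant. For both genes the wild-type groups were separate and only mutant control replicate 3 reached into the range of the mutant spg-7 arrays. The differences were -1.81 (SE 0.38) and -1.77 (SE 0.32) in wild type and -0.76 for each in the mutant.

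In abu-13, abu-12 and abu-4 the mutant difference was small or positive. Signals of abu-13 were 3510.3, 1382 and 2328 against 1172, 872 and 423 in wild type and 1818, 1528 and 525 against 1874, 2408 and 1460.3 in the mutant. The wild-type spg-7 arrays were all lower, while 2 of the 3 mutant spg-7 arrays were above every mutant control. Its log2 difference was -1.57 (SE 0.51) in wild type and 0.72 (SE 0.51) in the mutant, the highest mutant value of the 10 abu genes.

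Signals of abu-12 were 623, 359.9 and 836 against 247, 274 and 124 in wild type and 674, 660.2 and 187 against 724, 605 and 434 in the mutant, with log2 differences of -1.49 (SE 0.52) and 0.40 (SE 0.52). Those of abu-4 were 461, 771 and 1728 against 219, 379.6 and 149.9 in wild type and 2043, 1593 and 631 against 1667, 1132 and 768 in the mutant, with differences of -1.87 and -0.17 (SE 0.56 each). In both genes the wild-type groups were separate and the mutant groups overlapped. The abu-4 probe set used was marked x. Another abu-4 probe set above the filter, marked s, gave -1.96 in wild type, where its groups overlapped, and -0.47 in the mutant. The signals of abu-2 were 33.01, 54.3 and 228 against 24.7, 55.3 and 20.6 in wild type and 208, 144 and 71.3 against 234, 126 and 69.5 in the mutant. Its groups overlapped in both genotypes, and the differences were -1.29 and -0.02 (SE 0.72 each).

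In the mutant, the 10 abu genes had log2 differences from -0.97 to 0.72 with a median of -0.33, beside -0.02 for all genes. No abu gene was among the genes past limma's threshold in the mutant, while with arrays weighted by their scatter abu-8, abu-10 and abu-15 were, among 322 genes lower and 558 higher. Of the 10 abu genes, 1 had all spg-7 arrays below all controls, an arrangement found for 12.7% of genes in the mutant. This median depended on 1 array: mutant control replicate 3 was the lowest of its group for all 10 abu genes, and without it the median was -0.79. Mutant control replicates 1 and 2 were both above every mutant spg-7 array for 5 of the 10 genes.

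The difference between the responses, mutant minus wild type, was above zero for each abu gene, from 0.93 to 2.29 with a median of 1.37. The median was 0.25 for the pqn genes and -0.01 for all genes. Limma called none of the 10385 genes (0%) in either direction; at an unadjusted p under 0.05 there were 647 genes. This difference restates the pattern by which the group was picked. The range of the abu median over fits that left out 1 array was 0.94 to 1.67.

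Among the pqn genes, those lowest in wild type on spg-7 RNAi were pqn-71, pqn-26, pqn-13 and pqn-74, with log2 differences of -2.22, -2.08, -2.04 and -1.76. Signals of pqn-71 were 395, 213 and 269 against 111, 32.3 and 62.97 in wild type and 312, 233 and 197 against 95.4, 114 and 209.9 in the mutant. All wild-type spg-7 arrays were lower, 4.64-fold in the mean, and in the mutant only spg-7 replicate 3 lay among the controls, with a log2 difference of -0.88 (SE 0.47).

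Signals of pqn-26 were 963, 517 and 1449 against 344, 291 and 95.7 in wild type and 936, 809 and 264 against 812, 880.4 and 692 in the mutant. Those of pqn-13 were 1629.5, 369 and 1455 against 284, 301 and 147 in wild type and 815, 852 and 262 against 771, 965 and 666 in the mutant. The wild-type groups of both genes were separate and the mutant groups overlapped, with mutant log2 differences of 0.44 (SE 0.57) and 0.48 (SE 0.59). The second probe set for pqn-13 gave -2.53 in wild type and 0.25 in the mutant. Signals of pqn-74 were 2959, 2736 and 3515 against 1035, 1194 and 592 in wild type and 3726, 3483 and 1606 against 2488, 1202 and 2509 in the mutant, where only control replicate 3 overlapped the spg-7 arrays.

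Of the 17 members over 2-fold lower in wild type, against 8.54% of genes, 10 were abu and 7 pqn, and the other pqn genes were pqn-54, pqn-63 and pqn-35. Signals of pqn-54 were 2424, 2469 and 2839.8 against 1214, 1174 and 600.4, a log2 difference of -1.44 (SE 0.37). Those of pqn-63 were 795, 997 and 1835 against 511, 458 and 226, a difference of -1.59 (SE 0.52). Those of pqn-35 were 956, 668 and 1269.8 against 591, 588 and 188, a difference of -1.21 (SE 0.52). The wild-type groups of all 3 were separate. In the mutant their groups overlapped, with differences of -0.70, -0.37 and 0.36.

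**Figure D2:**
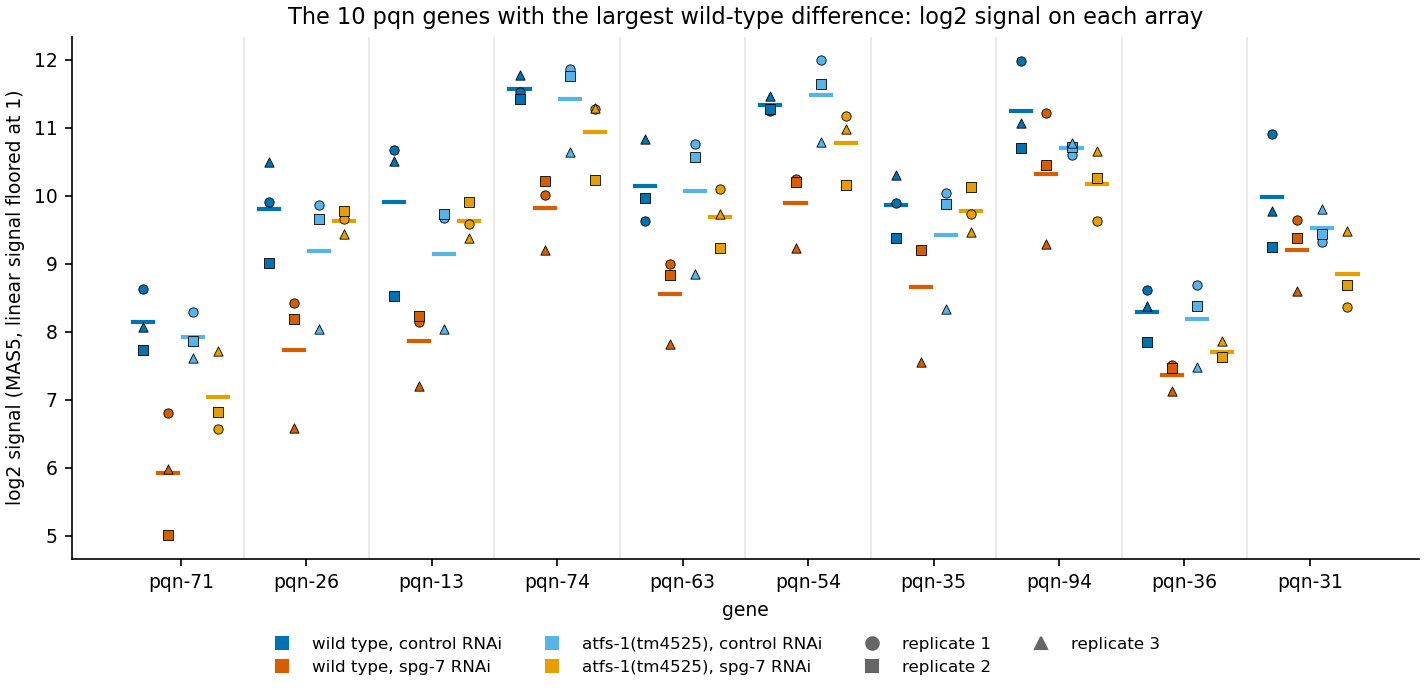
Log2 signal of the 10 pqn genes with the largest wild-type difference on each of the 12 arrays; symbols mark replicates and bars the mean of 3 arrays. The wild-type spg-7 arrays lie below the wild-type controls for 8 of these genes and overlap them for pqn-94 and pqn-31.

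Most other pqn genes lay near zero in wild type. The lowest of them were pqn-94 (-0.93), pqn-36 (-0.91), pqn-31 (-0.77) and pqn-8 (-0.73), of which pqn-36 and pqn-8 had separate wild-type groups. The gene pqn-59 had signals of 4309, 4616 and 4054 against 3199, 4089 and 5000.1 in wild type and 3814, 4229 and 4070.3 against 3546, 3275 and 4714 in the mutant. Its groups overlapped in both genotypes, with differences of -0.10 and -0.09 (SE 0.21). The gene pqn-41 had differences of -0.37 and -0.27 (SE 0.29), also with overlapping groups. The highest wild-type values were those of pqn-82 (0.49), pqn-21 (0.45) and pqn-48 (0.40), all with overlapping groups.

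The largest mutant difference of any member was that of pqn-84. Signals of pqn-84 were 34.2, 107 and 150.3 against 75.8, 70.01 and 29.9 in wild type and 348, 364 and 397 against 47.7, 20.6 and 55.5 in the mutant. The wild-type groups overlapped, whereas the mutant controls were above every other array and the mutant spg-7 arrays were 9.73-fold lower (log2 -3.28, SE 0.57). It was the one member past limma's threshold in the mutant, beside 0.221% of genes past it on the lower side, and this was lost in 5 of the 12 fits that left out 1 array. The gene passed the filter through its mutant control arrays, and its mutant spg-7 arrays were under the filter level. Its mutant difference and call therefore rest on dim values and on the arrays that let it in. No member was called higher in the mutant (0.944% of genes), and 1, pqn-48, had separate higher groups there, against 13.1% of genes. The gene pqn-72 had a mutant difference of -2.49 (SE 0.91) on the probe set used. That value rested on control replicates 1 and 2 at 1607 and 1380.4 against 135 in replicate 3, and 2 other probe sets for the gene gave -0.39 and -0.51.

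**Figure D3:**
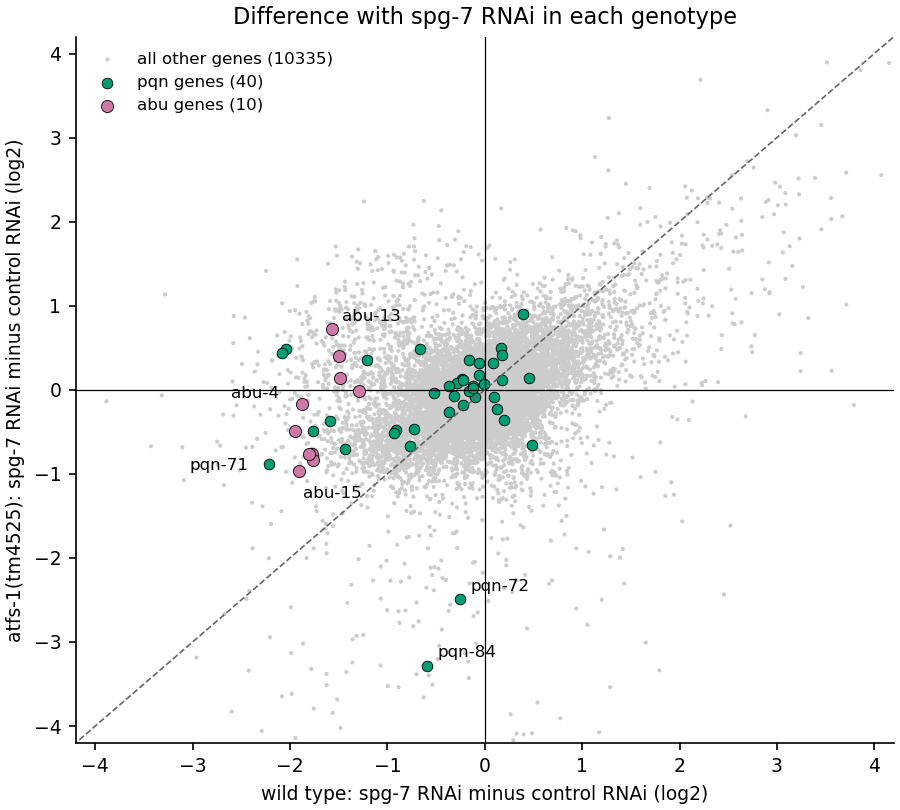
Log2 difference between spg-7 and control RNAi in wild type (horizontal) and in the mutant (vertical) for 10 abu genes, 40 pqn genes and 10335 other genes, with a dashed line where both are equal; 35 other genes lie beyond the axis limit of 4.2. The abu genes sit left of zero and above the line, and pqn-84 and pqn-72 far below it.

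Between the genotypes on control RNAi, the abu genes showed no called difference. Their log2 differences, mutant minus wild type, ran from -0.98 to 0.80 with a median of 0.05, and the limma adjusted p of members ran from 0.434 to 0.998. None of the 10385 genes (0%) was called in either direction, while 1113 had an unadjusted p under 0.05, 3 of them members. The highest member was pqn-84, which passed the filter through its mutant control arrays. It was at 2.17 (SE 0.57, limma adjusted p = 0.434), with all mutant arrays above all wild-type arrays. That arrangement held for 2 members, both pqn, against 11.8% of genes, and the reverse for 5 pqn genes, against 5.79% of genes.

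On spg-7 RNAi, all 10 abu genes had higher mean log2 signals in the mutant than in wild type, by 0.90 to 2.29 (median 1.37, or 2.58-fold), beside a median of 0.02 for the pqn genes. None passed the test: limma adjusted p values of the abu genes ran from 0.126 for abu-4 to 0.255 for abu-13. With arrays weighted by their scatter, 13 members including all 10 abu genes were called higher and 2 lower, among 756 genes higher and 478 lower. The weights of wild-type spg-7 replicates 1, 2 and 3 were 0.46, 3.33 and 0.27, so the wild-type side rested mostly on replicate 2. Without wild-type control replicate 1, abu-4 was called higher, among 531 genes higher and 56 lower. These arrays are also the ones on which the members were picked. All mutant arrays lay above all wild-type arrays for 13 members, 7 of them abu, against 15.7% of all genes. Without wild-type spg-7 replicate 1 it was 20 members. Fewer arrays separate more easily, and the share of all genes was not counted in that fit, so these counts cannot be compared. The called background was 9 genes lower (0.0867%) and 1 higher (0.00963%), and no member was among them.

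The largest of these genotype differences was that of abu-4, 4.88-fold (log2 2.29, SE 0.56, limma adjusted p = 0.126), on a probe set marked x. Its mutant arrays were at 768 to 1667 and its wild-type arrays at 149.9 to 379.6. The next among the abu genes was abu-2, at 2.07 (SE 0.72, limma adjusted p = 0.208), and among the pqn genes pqn-26, at 1.90 (SE 0.57, limma adjusted p = 0.183), and pqn-13, at 1.76 (SE 0.59, limma adjusted p = 0.198). All 4 genes had separate groups. For abu-2 the wild-type spg-7 arrays, at 24.7, 55.3 and 20.6, were under the filter level. It passed the filter through its brighter mutant arrays. The difference of abu-2, its rank and its place in the counts above therefore rest on dim wild-type values and on the arrays that let it in. The gene pqn-82 went the other way, at -1.54 (SE 0.50, limma adjusted p = 0.196), with every mutant array below every wild-type array, as for 1 other member, pqn-83, against 7.29% of genes.

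The 8 dim members were abu-3, pqn-10, pqn-11, pqn-16, pqn-20, pqn-29, pqn-73 and pqn-80, none above a signal of 147.5 on any array, and they were not tested. The 11 members without a probe set of their own (abu-1, abu-5, abu-7, abu-9, pqn-2, pqn-57, pqn-76, pqn-78, pqn-79, pqn-90 and pqn-91) were read only through probe sets shared with other members. All 9 of these probe sets had wild-type spg-7 arrays below all controls, an arrangement found for 8.48% of genes with a probe set of their own, with log2 differences from -2.29 to -1.34. Of the 9, 6 are annotated to combinations of the same genes, pqn-76, pqn-78, pqn-79, pqn-90, pqn-91 and abu-5. In the mutant the differences ran from -0.91 to -0.28, and 1 of 9, the one shared by pqn-57 and abu-9, had separate groups, against 12.7% of genes. The lowest in wild type, shared by pqn-90 and pqn-91, had signals of 723, 2003 and 4637 against 536, 411 and 259 in wild type and 4270.2, 3290.3 and 1409 against 2690.0, 1674 and 1478 in the mutant. The groups separated in wild type and overlapped in the mutant, at -2.29 and -0.52. The probe set shared by abu-7 and abu-8 gave -1.97 in wild type and -0.81 in the mutant. Members that share a probe set are not separate measurements, and several of these genes are close neighbours in RefSeq's order: abu-15, abu-6 and abu-7, pqn-90 and pqn-91, abu-1 and pqn-2, and pqn-57 and abu-9.

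The rule made no use of the scatter between replicates of a group, so deviations from group means were compared to see which pqn genes moved with the abu genes from array to array. The r of each gene's deviations to those of the abu median, leaving the gene out of that median for abu members, was 0.40 to 0.90 for the 10 abu genes and at least 0.7 for 8. It was at least 0.7 for 7 of the 40 pqn genes, pqn-54, pqn-63, pqn-26, pqn-74, pqn-35, pqn-36 and pqn-13, from 0.72 to 0.91, against 9.12% of other genes; the level of 0.7 was chosen after these values were seen. Each r rests on the same 12 arrays, so all genes share any difference in stage or RNA quality between those arrays. Those 7 pqn genes had a median wild-type log2 difference of -1.59, from -2.08 to -0.91, and of -0.37 in the mutant. The other 33 had medians of -0.16 and 0.02, and 13 pqn genes had a negative r, down to -0.80 for pqn-51. The gene pqn-71 was an exception, with an r of 0.31 and a wild-type difference of -2.22.

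**Figure D4:**
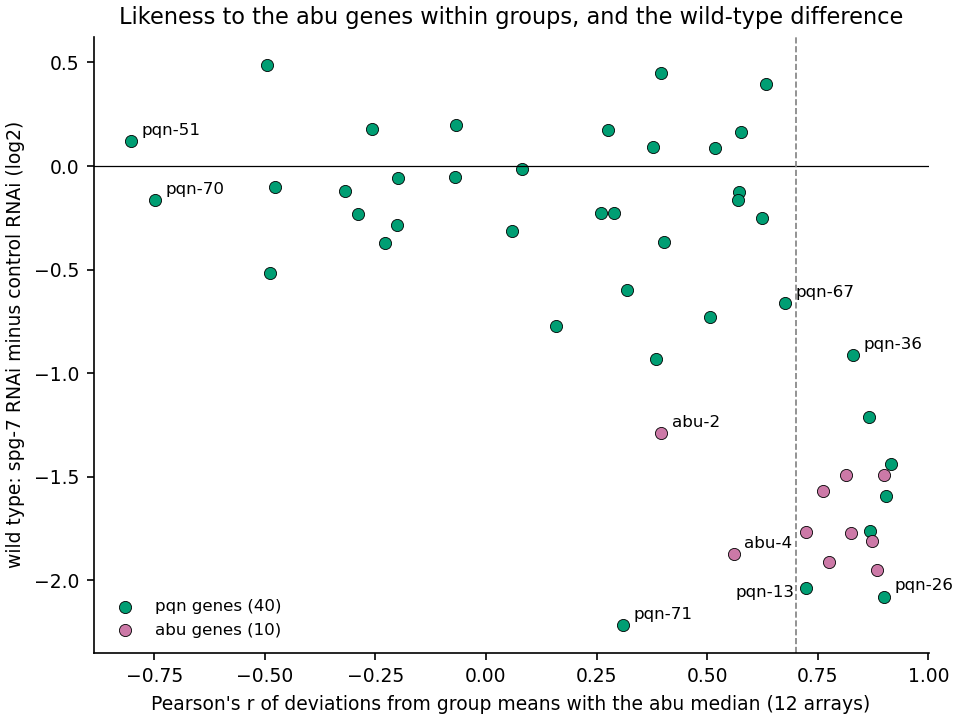
Correlation of each member's deviations from its group means with those of the abu median over 12 arrays, set against its log2 difference in wild type. The pqn genes with an r of at least 0.7 lie at log2 differences from -2.08 to -0.91, while pqn-71 stands apart at 0.31.

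The 10 other genes most like the abu median in this way had r values of 0.960 to 0.984. They were F53F1.4, K01D12.5, lron-2, C46H11.7, bli-5, nas-7, idpb-2, col-104, ptr-23 and col-34; bli-5 and the collagens col-104 and col-34 are genes of cuticle formation, nas-7 encodes an astacin protease and ptr-23 a patched-related protein. All 10 had lower mean log2 signals in wild type on spg-7 RNAi, by 0.74 to 2.36, and limma called 2 of them lower, lron-2 and C46H11.7; their mutant values ran from -0.30 to 0.47. The genes appg-1 and appg-2, named for the abu and pqn paralogue group, and 24 idp genes were added after the data had been seen. The wild-type log2 difference was -1.70 for appg-1 and -1.85 for appg-2, and 0.29 and 0.14 in the mutant. The idp genes had medians of -1.23 in wild type and -0.02 in the mutant, and 5 of 24 were called lower in wild type.

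Gene lists of the moult and the pharynx were read beside the abu genes. Of 32 measured moulting and apical matrix genes, 31 lay below zero in wild type, with a median of -0.93, and none was called; in the mutant the median was 0.61. The 7 measured regulators of moulting had a median of -0.90 in wild type and 0.60 in the mutant, with none called, and among them nhr-23, a nuclear receptor needed for moulting, was at -0.32. The 18 measured furrow and structural collagens had medians of -0.94 and 0.67, with none called. The mutant medians of these lists were above zero, while that of the abu genes was -0.33.

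Of 9 pharynx muscle genes the wild-type median was -1.26 and none was called; myo-2, the pharynx muscle myosin, was at -2.01. Of 12 pharynx gland and epithelium genes the median was -0.73 and 8 lay below zero. Of these, 2 were called lower, phat-4 at -2.04 and phat-2 at -1.51. The 5 measured pharynx regulators had a median of -0.21, the same value as pha-4, which specifies the pharynx. The 15 body wall muscle genes had a median of -0.59 with 1 called lower, and the 12 neuron genes a median of -0.35 with 1 called higher. In the mutant the medians were -0.23 for pharynx muscle and -0.21 for body wall muscle. They were 0.26 for pharynx glands and epithelium, 0.15 for pharynx regulators and 0.06 for neurons. Whether these levels have a part in the abu values was not tested.

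The medians of the stress response lists were not lower on spg-7 RNAi in wild type, unlike that of the abu genes. Within groups, however, their deviations did correlate with those of the abu median. The r was 0.56 for the endoplasmic reticulum list and 0.72 for the mitochondrial list. The 24 genes of the endoplasmic reticulum unfolded protein response, from whose loss the abu genes take their name, had medians of 0.05 in wild type and 0.18 in the mutant, with none called; xbp-1, its transcription factor, was at 0.63 and ced-1, whose mutants were used in work on abu genes, at 0.14. The 10 genes of the mitochondrial unfolded protein response had medians of 0.39 and 0.21, with 3 called higher in wild type and 1 in mutant worms; its mitochondrial chaperone hsp-6 was at 0.44 in wild type, and atfs-1 itself at 0.99. The 10 chitin genes had medians of -0.05 and -0.78, and only 5 of them lay below zero in wild type. There 1 was called lower, cht-2 at -2.58, while chs-2, the chitin synthase of the pharynx, was at -1.34 and was not called. The 16 intestine genes had medians of 0.43 and 0.48.

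**Figure D5:**
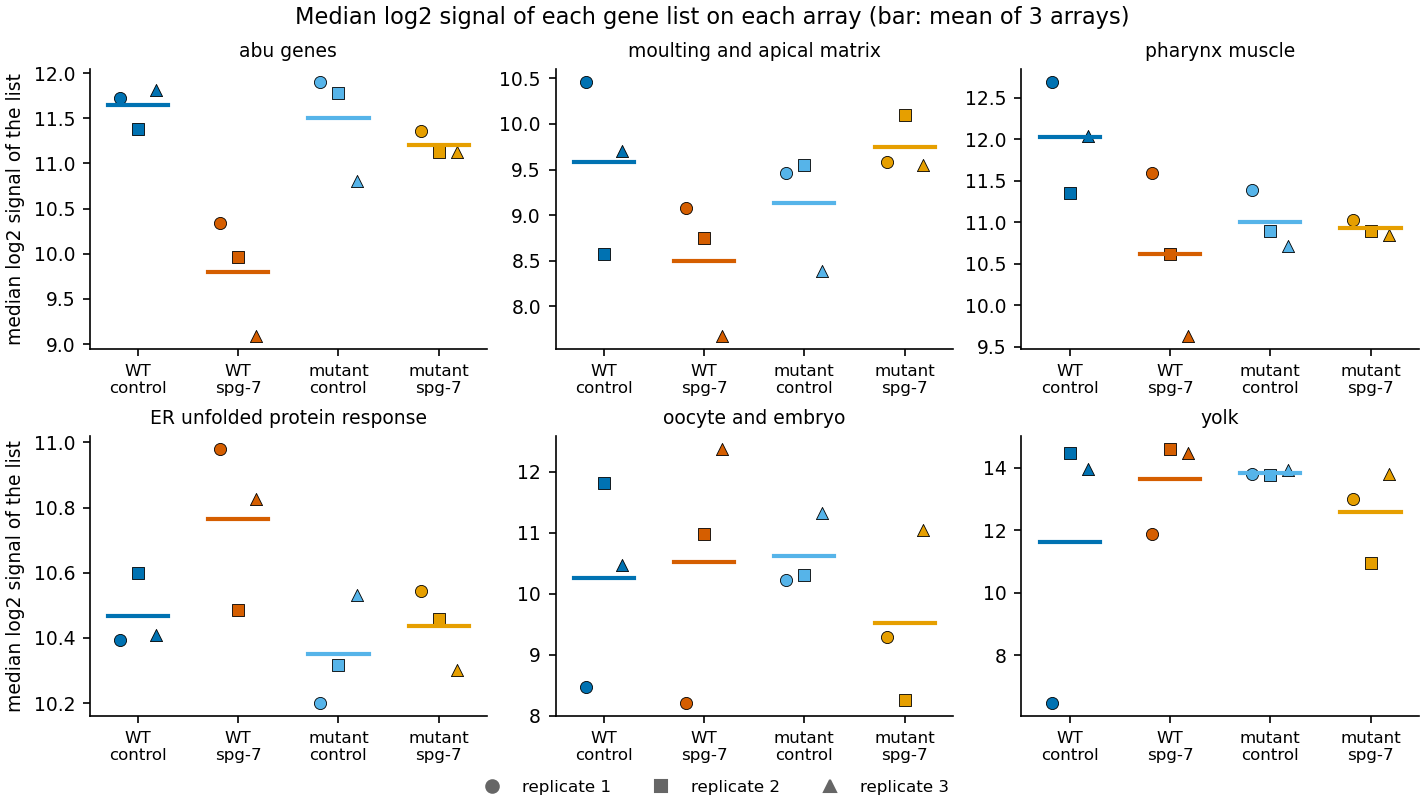
Median log2 signal of the abu genes and of 5 gene lists on each array, with its own axis range per panel; symbols mark replicates and bars the mean of 3 arrays. The abu, moulting and pharynx muscle medians are lowest in wild-type spg-7 replicate 3, and the yolk median in wild-type control replicate 1.

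Levels that mark stage and RNA quality moved with the arrays as well. Wild-type spg-7 replicate 3 was the lowest of all 12 arrays for all 10 abu genes and for 10 of 40 pqn genes; without it the wild-type abu median was -1.46. Its median of the moulting and apical matrix genes, 7.67, was also the lowest of the 12 arrays. The median log2 signal of oocyte and embryo genes was 12.38 there against 8.21 and 10.99 in the other wild-type spg-7 arrays, and 8.47 to 11.82 in wild-type controls. Across the 12 arrays the list medians' deviations correlated with those of the abu median at 0.73 for the moulting and apical matrix genes and -0.52 for the oocyte and embryo genes. A high value was not particular to the moult: it was 0.72 for the mitochondrial unfolded protein response, 0.70 for body wall muscle and 0.66 for intestine. The remaining lists ran from -0.49 for chitin metabolism to 0.67 for pharynx glands and epithelium. The actin 3′ signal exceeded the 5′ signal, on the log2 scale, by 0.82 to 0.85 in wild type on spg-7 RNAi, 0.43 to 0.62 in wild-type controls, 0.54 to 0.69 in the mutant on spg-7 RNAi and 0.41 to 0.48 in mutant controls. The part of stage or RNA quality in the abu values was not tested.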

How the data were processed

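RNA from 12 cultures was measured, 3 biological replicates in each of 4 groups. The deposited values are probe-set signal intensities on a linear scale; per the submitters' processing notes they were made with MAS5, whose version and settings are not given in the sources used here. With 2% of values trimmed at each end, every array averaged 500.1 to 500.2. Detection calls were not used here, so a dim probe set is one under the filter.

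From these, intensities were floored at 1 (0.509% of values) and taken to log2, and the dimmest 40% by mean log2 over the arrays were dropped (a level of 6.25, or signal 76.0). Each gene kept its brightest probe set with 1 gene name, which left 10385 genes. Of 22548 probe sets other than controls, 20766 had 1 gene name, 887 several and 895 none; 69 of 69 member names were matched by gene ID to RefSeq (assembly WBcel235), which was used for names and gene order only. Probe sets marked s or x can bind transcripts of more than 1 gene.

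Limma 3.58.1 (R 4.3.3) fitted all 12 arrays together, each group having its own mean; variances were moderated along a trend, the residual degrees of freedom were 8, and p values were adjusted by Benjamini-Hochberg within each of 5 comparisons. The number of arrays limits the precision. Plots came from matplotlib 3.10.9 (Python 3.11.15), and the scripts were tested on simulated data. The members, the gene lists and the rule for named genes (9 genes always, such as spg-7, atfs-1 and hsp-6; all abu genes; the 10 pqn genes furthest from zero in wild type and 4 nearest to it; the 10 other genes most like the abu median; and up to 4 genes a list) were chosen with earlier results of these data known, and other pqn genes, such as pqn-84, pqn-72 and pqn-82, were named after their values were seen. Alternatives covered scaling, filter, probe set choice, model and leaving out arrays.

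Replicate numbers are shared between groups. Same-numbered arrays correlated in their deviations at 0.29, 0.42 and 0.53 in the mutant response, which met the rule for pairing, and at -0.46 to 0.66 in the other comparisons, which did not.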

Additional observations from a re-analysis of the deposited data

How the results depend on the processing

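No result that had been called changed sign under the alternatives run. Of 545 recomputed counts and medians, 522 kept within 1.5 times the count or 1 SD of the median. That SD was the spread of the array medians within groups, a log2 of 0.46 for abu and 0.32 for pqn. Several counts were 0 in the main fit and mostly stayed 0, so this total says little about stability. The members called lower in wild type, 7 in the main fit, ran from 0 to 14. Leaving out the lowest 60% of probe sets gave 0 members called lower in the mutant, of 3 genes. Without probe sets marked s or x, 3 members were called lower in wild type, of 107 genes among 7231 tested. That setting removes the probe sets by which abu-6, abu-8, abu-11, abu-15 and pqn-74 were called in the main fit. In it 10 members had separate lower groups in wild type and 6 separate higher groups in the mutant on spg-7 RNAi. The share of all genes with such groups was not counted in that setting, so nothing is read from these counts. Of the abu genes in the main fit, only abu-2, abu-10 and abu-14 were on plain probe sets. With array weights, 14 members were called lower and 1 higher in wild type, 6 lower in the mutant (abu-8, abu-10 and abu-15 among them), and 2 lower and 13 higher in the mutant against wild type on spg-7 RNAi, all 10 abu genes among the higher. Over all genes that setting called 650 lower and 841 higher in wild type, 322 and 558 in the mutant, and 478 and 756 between genotypes on spg-7 RNAi. Its weights for wild-type spg-7 replicates 1, 2 and 3 were 0.46, 3.33 and 0.27, so that group rested mostly on replicate 2. Fitting the 2 wild-type groups alone called 0 members lower, of 9 genes. Without both wild-type control replicate 1 and wild-type spg-7 replicate 3, 3 were called lower and 1 higher, of 557 and 670 genes.

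Leaving out 1 array at a time gave 1 to 11 members called lower in wild type: 1 of 60 genes without wild-type spg-7 replicate 2, 2 of 31 without wild-type control replicate 3 and 11 of 178 without mutant control replicate 3. The mutant abu median ran from -0.79 to -0.028 and members called lower in the mutant from 0 to 1 (0 when any one of the 3 mutant controls, or mutant spg-7 replicate 1 or 2, was left out). The remaining ranges were, for members called higher in the mutant on spg-7 RNAi, 0 to 1 (abu-4, without wild-type control replicate 1), and for members with separate higher groups there, 13 to 20 (20 without wild-type spg-7 replicate 1). Fewer arrays separate more easily, and the share of all genes with separate groups was not counted in those fits. The fit with the replicate number as a block called 8 members lower in wild type, of 165 genes. In the mutant it kept the call of pqn-84 and added no member. Over all genes the mutant calls went from 23 lower and 98 higher to 20 and 86. Median centring moved the median of all genes from 0.0048 to -0.22 in the mutant against wild type on spg-7 RNAi, where the abu median became 1.14, and from -0.024 to -0.15 on control RNAi, where the abu median turned from 0.05 to -0.07 with no member called. Protein and promoter comparisons were not run, since no sequence was used here. The 8 members under the filter were not tested.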
